A study of Mus musculus with 12 samples.

Results

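The creatine and adenylate kinase energy shuttle was examined in mouse heart through 9 genes, chosen by name from the 53700 genes of the count table. They were 3 creatine kinases (Ckm, Ckmt2 and Ckb), 3 genes of creatine synthesis and uptake (Gatm, Gamt and Slc6a8) and 3 adenylate kinases (Ak1, Ak3 and Ak4), and all 9 passed the filter on low counts. The study asked what cytochrome b5 reductase 3, encoded by Cyb5r3, does in adult cardiomyocytes. Mice of genotype CYB5R3wt/wt with Myh6-CreERT2 are called ac-WT, and mice of genotype CYB5R3fl/fl with Myh6-CreERT2 are called ac-CYB5R3–KO or knockout. Both groups (n = 6 mice each, 12 hearts in all, all male) carried the same tamoxifen-inducible Cre recombinase, and both were injected with tamoxifen (33 mg/kg/d over 5 days) when 10 to 13 weeks old. Whole hearts were taken 5 days after tamoxifen. The Myh6 promoter drives Cre in cardiomyocytes, so other cells of the heart kept Cyb5r3, and the effects of Cre and tamoxifen were shared by the groups and could not be measured here.

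Creatine kinases move a phosphate group between ATP and creatine, so that phosphocreatine buffers ATP at the myofilaments and carries high-energy phosphate away from mitochondria. Adenylate kinases convert 2 ADP into ATP and AMP, and AMP in turn activates the AMP-activated protein kinase. The heart depends on both systems because its beat-to-beat use of ATP far exceeds its store of ATP.

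Expression is given as CPM, counts relative to library size, normalized with the TMM factors of edgeR, which scale each library so that most genes keep the same level. Libraries held between 43393183 and 53754284 counts. The ac-WT mice 2 and 3 stood apart from the other hearts, with TMM factors of 0.570 and 0.723 against 0.988 to 1.22 in the other 10, and mitochondrially encoded genes took 35.3% and 34.8% of their counts against 24.0% to 30.1%. The log2 fold changes of the 9 genes and of the other named pathway genes are therefore given with and without these 2 hearts. Cyb5r3, which was floxed, was at 125 CPM (range 81.8 to 185) in ac-WT and 53.7 CPM (range 42.0 to 67.4) in knockout hearts, with no overlap (log2 fold change −1.22, SE 0.19, edgeR adjusted p = 0.0449). It was lower in all 23 alternative settings, and its adjusted p was 0.05 or above in 11 of them.

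Of the 9 genes, Ckm alone was lower in ac-CYB5R3–KO hearts at an unadjusted p under 0.01 (quasi-likelihood test of edgeR, two-sided, n = 6 mice per group), and none was higher. Over all 17847 genes tested, 3.27% were lower and 1.33% higher at this threshold. At an unadjusted p under 0.05, Ckm, Ckmt2 and Gamt were lower and none was higher, against 9.73% of all genes lower and 4.91% higher. After adjustment over all genes, 0 of the 9 genes passed 0.05, a threshold that 0.101% of all genes passed. DESeq2 placed 1 of the 9, Ckm, under an adjusted p of 0.05, which 2.34% of all genes with an adjusted p passed in that tool. Without any threshold 4 of the 9 genes were lower, where 51.2% of all genes were, and the median log2 fold change was 0.07 over the 9 genes and −0.01 over all genes. In none of the 9 genes were the groups separate in either direction. Over all genes, 1.04% were separate with knockout lower, and the share with knockout higher is not given here.

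**Figure D1:**
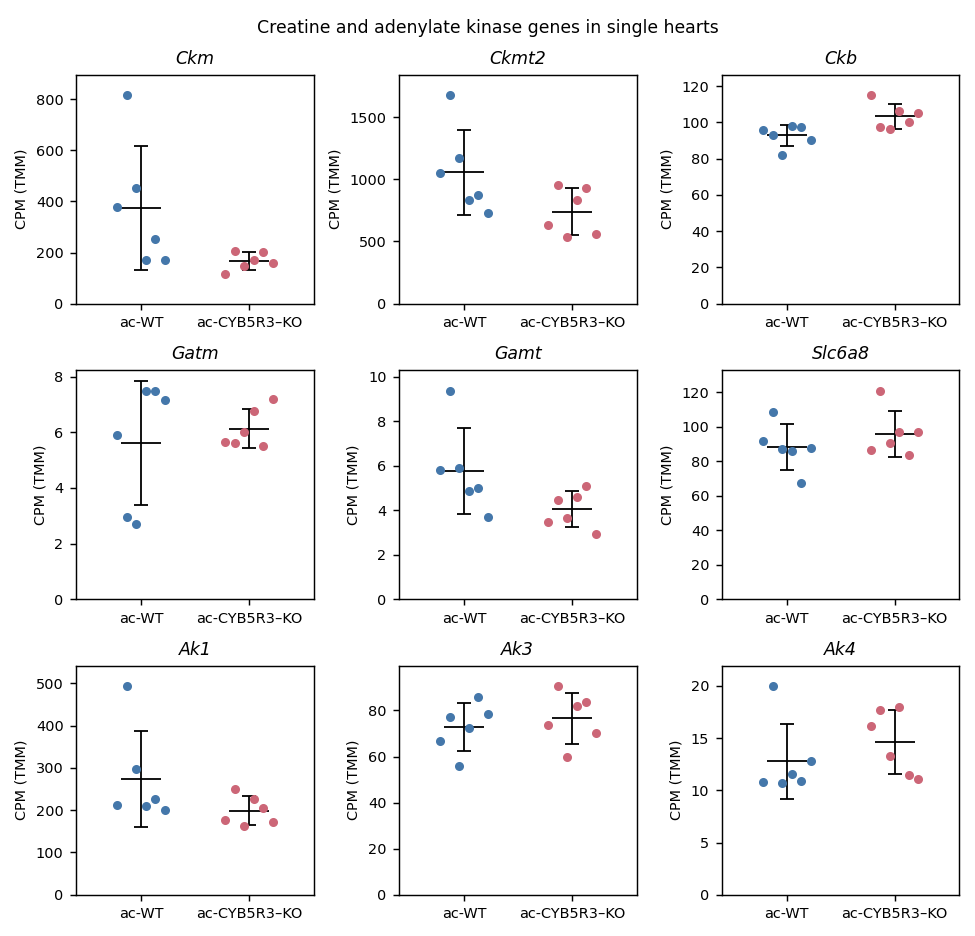
Expression of the 9 genes in each heart, in TMM-normalized CPM on a linear axis from 0. Points are single mice (6 per group, left to right mouse 1 to 6), the long bar is the group mean and the whiskers are the SD. The ac-WT hearts spread from 172 to 815 CPM for Ckm, and groups overlap in every panel.

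With all hearts and TMM scaling, the muscle creatine kinase genes Ckm and Ckmt2 had the lowest log2 fold changes of the 9 genes. Ckm encodes the muscle cytosolic creatine kinase, which regenerates ATP at the M-band of the sarcomere. In ac-WT hearts Ckm was lowest at 172 CPM, had a median of 315 and reached 815 CPM, with 379, 815, 453, 173, 251 and 172 CPM in mice 1 to 6. In ac-CYB5R3–KO hearts it ran from 116 to 207 CPM with a median of 165. The ac-WT mice 1, 2, 3 and 5 were above every ac-CYB5R3–KO heart, and mice 4 and 6 lay within the knockout range. Mean expression was 374 ± 244 CPM (SD, n = 6) in ac-WT and 167 ± 33.9 CPM (SD, n = 6) in knockout hearts, 44.7% of the ac-WT mean. The log2 fold change was −1.16 (SE 0.34), with an unadjusted p of 0.00451 and an adjusted p of 0.188 in edgeR and p = 0.026 by exact permutation (two-sided, all 924 divisions of the 12 hearts). The smallest p this exact test can give with 12 hearts is 0.00216, which any gene with separate groups receives. It was run for 18 genes, the 9 members and 9 others named further on. Those 9 others were named by their edgeR p in these same hearts, so their exact p values are no independent evidence. The size rested in part on ac-WT mouse 2, since the log2 fold change was −0.76 (adjusted p = 0.312) without it and −0.53 (adjusted p = 0.597, exact permutation p = 0.1, 210 splits) without mice 2 and 3. Leaving out ac-WT mouse 3, ac-CYB5R3–KO mouse 1 or ac-CYB5R3–KO mouse 3 alone also took the edgeR p of Ckm just above 0.01 (0.0106, 0.0117 and 0.0110), at log2 fold changes of −1.10, −1.08 and −1.13. The decrease of Ckm was smallest with 1 surrogate variable, at a log2 fold change of −0.33, and it was −0.96 with the replicate block. Ckm was called at the unadjusted threshold in neither of these settings. In DESeq2 the adjusted p of Ckm was 0.0403, within a range of 0.0403 to 0.751 over all alternatives.

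Ckmt2 encodes the sarcomeric mitochondrial creatine kinase, which sits in the intermembrane space and makes phosphocreatine from the ATP that mitochondria export. Its lowest, median and highest values were 728, 965 and 1674 CPM in ac-WT and 535, 731 and 952 CPM in knockout hearts. The ac-WT mice 1, 2 and 3 lay above all 6 knockout hearts, while the other ac-WT hearts overlapped them. The knockout mean was 70.1% of the ac-WT mean (740 ± 187 against 1057 ± 342 CPM, SD, n = 6), at a log2 fold change of −0.51 (SE 0.22, edgeR unadjusted p = 0.0374, adjusted p = 0.310, exact permutation p = 0.0584). Without ac-WT mice 2 and 3 it was −0.22 (adjusted p = 0.841, exact permutation p = 0.229).

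Ckb encodes the cytosolic brain-type creatine kinase, which the heart also expresses, and its values leaned the other way. The lowest, median and highest values were 82.0, 94.6 and 97.8 CPM in ac-WT and 96.4, 103 and 115 CPM in knockout hearts. In Ckb, 4 of 6 knockout hearts were above every ac-WT heart and 4 of 6 ac-WT hearts were below every knockout heart, yet the ranges overlapped between 96.4 and 97.8 CPM. Ckb was also the least variable of the 9 genes within ac-WT, at 92.8 ± 5.93 CPM (SD, n = 6), against 103 ± 6.94 CPM (SD, n = 6) in knockout hearts. The log2 fold change of 0.16 (SE 0.09) had an edgeR p of 0.0852 and an adjusted p of 0.407, against p = 0.013 in the exact permutation test. Without ac-WT mice 2 and 3 it was 0.13 (adjusted p = 0.733, exact permutation p = 0.0571).

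The 3 creatine kinase genes were compared by the sequence just before their transcription starts, since the muscle isoforms and the brain isoform leaned in opposite directions. Shown are the 250 bases before the start of each gene in the RefSeq promoter table of GRCm38.p6, 5′ to 3′ on the strand of the gene. Ckm lies on the plus strand (chr7:19410844-19411093), and Ckmt2 (chr13:91876886-91877135) and Ckb (chr12:111672339-111672588) lie on the minus strand. Capitals mark an E-box (CANNTG, the site class of muscle basic helix-loop-helix factors) and the TATA box (TATAAA in Ckb, where the capitals mark the whole MEF2 site that holds it, and the variant TATATA in Ckm).
Ckm: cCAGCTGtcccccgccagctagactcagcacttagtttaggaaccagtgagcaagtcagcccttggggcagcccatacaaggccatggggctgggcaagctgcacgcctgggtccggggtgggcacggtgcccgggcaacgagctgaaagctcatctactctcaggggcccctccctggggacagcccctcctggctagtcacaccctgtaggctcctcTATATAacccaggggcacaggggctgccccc
Ckmt2: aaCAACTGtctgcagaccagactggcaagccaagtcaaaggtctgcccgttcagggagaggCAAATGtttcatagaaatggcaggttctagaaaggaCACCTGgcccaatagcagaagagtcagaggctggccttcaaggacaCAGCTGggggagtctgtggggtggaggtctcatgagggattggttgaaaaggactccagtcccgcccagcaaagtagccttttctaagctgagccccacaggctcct
Ckb: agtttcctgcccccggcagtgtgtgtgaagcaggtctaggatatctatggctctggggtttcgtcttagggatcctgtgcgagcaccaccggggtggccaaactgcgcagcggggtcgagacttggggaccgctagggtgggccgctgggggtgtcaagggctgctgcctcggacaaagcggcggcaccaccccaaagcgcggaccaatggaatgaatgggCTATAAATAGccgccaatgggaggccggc
The Ckm window held 1 E-box, at bases −249 to −244 from the start, and the Ckmt2 window held 4, at −248, −189, −153 and −107. The Ckb window held none, and 66.2% of the 32851 mouse promoter windows of the same length held at least 1 on either strand. In Ckb a MEF2 site at −29 to −20 contained the letters TATAAA at −28 to −23. The Ckm window held TATATA at −31 to −26, a search added after its sequence was seen, and the Ckmt2 window held neither TATA spelling. TATAAA was present in 12.4%, TATATA in 5.25% and the MEF2 site in 2.92% of all windows. The ERR half-site (AAGGTCA), the letters read by estrogen-related receptors, was in none of the 3 windows and in 4.08% of all. The table had an entry for 8 of the 9 genes, all but Slc6a8. These matches are letters in a window and were not tested for binding, and sequence beyond the 250 bases was not searched.

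Per kilobase of exon, a scale on which genes can be compared, Ckmt2 was the most abundant creatine kinase in every heart, followed by Ckm. In ac-WT hearts Ckmt2 was at 711 ± 230 CPM per kb (SD, n = 6), Ckm at 264 ± 172 and Ckb at 62.8 ± 4.02. In ac-CYB5R3–KO hearts the levels were 498 ± 126, 118 ± 24.0 and 70.0 ± 4.70 CPM per kb. As a share of creatine kinase transcripts per kb, Ckmt2 made up 69.7% ± 3.98 (SD, n = 6) in ac-WT and 72.1% ± 3.56 (SD, n = 6) in knockout hearts. The share of Ckm was 23.6% ± 6.17 in ac-WT and 17.3% ± 2.28 in ac-CYB5R3–KO, with ranges of 16.3% to 32.6% and 14.0% to 20.0% that overlapped. The share of Ckb was 6.73% ± 2.26 in ac-WT and 10.6% ± 2.45 in ac-CYB5R3–KO, with ranges of 3.57% to 9.10% and 7.72% to 13.3%. These shares do not depend on how libraries are scaled. The knockout minus ac-WT difference was −6.25 percentage points for Ckm, 3.89 for Ckb and 2.36 for Ckmt2, and without ac-WT mice 2 and 3 it was −3.02, 2.60 and 0.414 percentage points. Without mouse 2 alone it was 1.19 percentage points for Ckmt2.

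**Figure D2:**
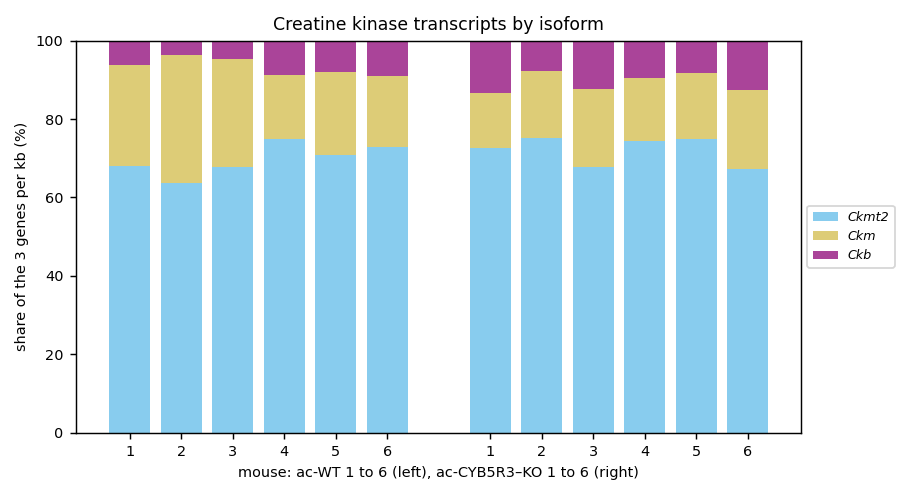
Share of each creatine kinase gene in the summed CPM per kb of Ckm, Ckmt2 and Ckb, in percent, for each mouse (ac-WT 1 to 6 left, ac-CYB5R3–KO 1 to 6 right). The Ckm share is highest in ac-WT mouse 2 (32.6%) and the Ckb share is highest in ac-CYB5R3–KO mouse 1 (13.3%).

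Creatine itself is made from arginine and glycine by GATM and methylated by GAMT, steps best known in kidney and liver, and enters muscle through the transporter SLC6A8. Transcripts of the transporter were more abundant per kb than those of either enzyme in all 12 hearts. Slc6a8 was at 16.9 ± 2.53 CPM per kb (SD, n = 6) in ac-WT hearts, Gamt at 3.99 ± 1.34 and Gatm at 1.87 ± 0.742.

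Gamt, the methyltransferase, was lowest at 3.70 CPM, had a median of 5.39 and reached 9.36 CPM in ac-WT hearts, against 2.93, 4.06 and 5.07 CPM in knockout hearts. Mouse 2 again gave the highest ac-WT value, and the groups overlapped. Mean levels of Gamt, 5.76 ± 1.93 CPM (SD, n = 6) in ac-WT, were 4.04 ± 0.804 CPM in knockout hearts. On the same contrast the log2 fold change was −0.51 (SE 0.21, edgeR unadjusted p = 0.0273, adjusted p = 0.274, exact permutation p = 0.0411), and −0.24 (adjusted p = 0.797, exact permutation p = 0.167) without ac-WT mice 2 and 3. Counts of Gamt were between 144 and 307 per library.

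Gatm, the amidinotransferase of the first step, was split within ac-WT. Mice 2 and 3 were at 2.97 and 2.72 CPM, below every other heart, and the other 4 ac-WT hearts were between 5.90 and 7.49 CPM. The ac-CYB5R3–KO hearts ran from 5.50 to 7.18 CPM with a median of 5.84, inside the ac-WT range. The log2 fold change of Gatm was 0.12 (SE 0.24, edgeR unadjusted p = 0.630, adjusted p = 0.838, exact permutation p = 0.446) and its sign turned without ac-WT mice 2 and 3 (−0.18, adjusted p = 0.749, exact permutation p = 0.0762), with 1 surrogate variable (−0.29) and without ac-WT mouse 3 alone (−0.01).

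Slc6a8, the creatine transporter, had lowest, median and highest values of 67.4, 87.5 and 109 CPM in ac-WT and 83.4, 93.8 and 121 CPM in knockout hearts. The groups overlapped over most of their range. Its log2 fold change was 0.12 (SE 0.12, edgeR unadjusted p = 0.338, adjusted p = 0.655, exact permutation p = 0.325), and 0.22 (adjusted p = 0.706, exact permutation p = 0.143) without ac-WT mice 2 and 3. It was 0.05 (edgeR adjusted p = 0.893) without ac-CYB5R3–KO mouse 2 and 0.06 (edgeR adjusted p = 0.819) without ac-WT mouse 5.

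Among the adenylate kinases, Ak1 is the cytosolic enzyme of striated muscle, Ak3 acts in the mitochondrial matrix and uses GTP, and Ak4 is a matrix protein of the same family. Ak1 was the most abundant of them in every heart, at 97.7 ± 40.5 CPM per kb (SD, n = 6) in ac-WT, where Ak3 was at 23.3 ± 3.36 and Ak4 at 2.36 ± 0.662. In ac-CYB5R3–KO hearts the levels were 71.1 ± 12.3, 24.6 ± 3.53 and 2.69 ± 0.567 CPM per kb.

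Ak1 had lowest, median and highest values of 201, 219 and 492 CPM in ac-WT and 164, 190 and 250 CPM in knockout hearts. The ac-WT mice 2 (492 CPM) and 3 (298 CPM) were above all knockout hearts, and the other 4 ac-WT hearts (201 to 226 CPM) lay inside the knockout range. The log2 fold change of −0.46 (SE 0.22, edgeR unadjusted p = 0.0553, adjusted p = 0.350, exact permutation p = 0.0909) was −0.08 (adjusted p = 0.941, exact permutation p = 0.405) without those 2 hearts, and 0.04 when libraries were scaled to cardiomyocyte genes.

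Ak3 spread over 55.9, 74.7 and 86.0 CPM (lowest, median, highest) in ac-WT and 59.6, 77.7 and 90.4 CPM in knockout hearts. The groups covered nearly the same range, with a log2 fold change of 0.07 (SE 0.13, edgeR unadjusted p = 0.568, adjusted p = 0.805, exact permutation p = 0.563) that turned to −0.03 with 1 surrogate variable and was 0.03 (adjusted p = 0.984, exact permutation p = 0.967) without ac-WT mice 2 and 3. Ak4 spread over 10.7, 11.2 and 19.9 CPM in ac-WT and 11.1, 14.7 and 17.9 CPM in knockout hearts. Mouse 2 was again the highest ac-WT heart, while the other 5 were between 10.7 and 12.8 CPM. The log2 fold change of Ak4 was 0.19 (SE 0.18, edgeR unadjusted p = 0.295, adjusted p = 0.620, exact permutation p = 0.329) in all hearts and 0.36 (adjusted p = 0.584, exact permutation p = 0.081) without ac-WT mice 2 and 3. As a share of the 3 adenylate kinases per kb, Ak4 was 1.95% ± 0.282 (range 1.56% to 2.36%) in ac-WT and 2.75% ± 0.468 (range 2.07% to 3.32%) in knockout hearts (SD, n = 6).

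On the per-kb scale the 9 genes fell in the same order of mean level in both groups, namely Ckmt2, Ckm, Ak1, Ckb, Ak3, Slc6a8, Gamt, Ak4 and Gatm. In ac-WT hearts each gene was above the next in 6 of 6 hearts except Ak4 over Gatm, which held in 3. In ac-CYB5R3–KO hearts 3 neighbours changed places between hearts, since Ak1 was above Ckb in 3 of 6 hearts, Gamt above Ak4 in 2 of 6 and Ak4 above Gatm in 5 of 6.

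The scaling of libraries moved all 9 genes. Over all genes, the median difference on the log2 scale was −0.01 with TMM, 0.26 when libraries were scaled to total counts and 0.40 when they were scaled to cardiomyocyte genes. The share of genes called lower at an unadjusted p under 0.01 among all called genes was 71.1%, 33.1% and 8.26%, respectively. Ckm was lower under all 3 scalings, by log2 fold changes of −1.16, −0.71 (adjusted p = 0.399) and −0.59 (adjusted p = 0.210). Scaled to cardiomyocyte genes, Ckmt2 (−0.05), Gamt (−0.03) and Ak1 (0.04) were near 0, while Slc6a8 and Ak4 were the 2 genes at an unadjusted p under 0.01, both higher in knockout hearts (log2 fold changes 0.55 and 0.64). Under that scaling 3.55% of all genes were higher at this threshold, and relative to the median gene Slc6a8 was at 0.14 and Ak4 at 0.24, against 0.13 and 0.20 with TMM. On the same relative scale Ckm was at −0.99, Ckmt2 at −0.45, Gamt at −0.43 and Ak1 at −0.36.

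**Figure D3:**
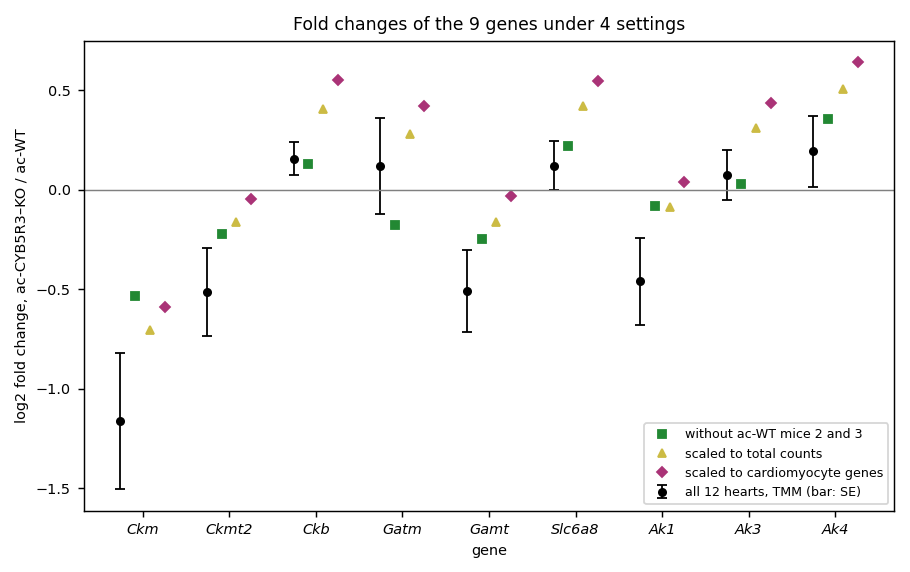
Log2 fold change (ac-CYB5R3–KO over ac-WT, vertical axis) of each of the 9 genes with all 12 hearts and TMM (circles, bars are SE from edgeR), without ac-WT mice 2 and 3 (squares), scaled to total counts (triangles) and scaled to cardiomyocyte genes (diamonds). Ckm is below 0 in all 4 settings shown (−1.16, −0.53, −0.71 and −0.59), and Gatm and Ak1 change sign between settings.

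Markers of the cell types in whole heart are given beside these differences, because in RNA from whole tissue fewer cells of a type and less RNA per cell cannot be told apart. Of 11 cardiomyocyte markers, 9 were lower in knockout hearts and 3 (Tnni3, Myl2 and Myl3) were so at an unadjusted edgeR p under 0.01. Their summed level ran from 24908 to 56185 CPM in ac-WT and from 18393 to 30997 CPM in knockout hearts, and the ac-WT mice 2 and 3, with the highest Ckm, were also highest here (56185 and 45164 CPM). These 2 hearts had the lowest summed fibroblast markers, at 1556 and 1560 CPM against 3767 to 7276 CPM in the other 10, and 0 of 8 fibroblast markers passed an edgeR p of 0.05 between groups. All 7 tested red blood cell markers were higher in knockout hearts and 5 were so at an edgeR p under 0.05, with sums of 425 to 8206 CPM in ac-WT and 2537 to 24760 CPM in knockout hearts. Skeletal muscle, which also expresses Ckm and Ak1, was represented by 9 markers that summed to 12.6 to 33.9 CPM in ac-WT and 13.6 to 40.8 CPM in knockout hearts. Of those, Myh1, Myh2, Pvalb, Atp2a1 and Actn3 were below the filter, and Myh4 and Tnni2 were lower at an unadjusted edgeR p under 0.05. The ac-WT mouse 2, with the highest Ckm, had the lowest sum (12.6 CPM), of which Tnnt3 made up 7.02 CPM. Tnnt3 was lowest in this heart, whereas Myh4 (1.47 CPM), Myh1 (0.140 CPM) and Myh2 (0.105 CPM) were highest in it among the 12 hearts. Tnni2, Mylpf, Pvalb, Atp2a1 and Actn3 were neither highest nor lowest there. Among 8 smooth muscle markers 5 were lower and 1 (Cnn1) higher at an edgeR p under 0.05, and none of 8 endothelial or 9 leukocyte markers passed it. Of 8 adipose markers, only Cidea was above the filter on low counts, with a log2 fold change of −0.24 (edgeR adjusted p = 0.581). Below the filter, Adipoq, Plin1, Cfd and Retn were highest in ac-WT mouse 2, at 0.559, 0.279, 2.86 and 0.140 CPM. Their highest values in any other heart were 0.0379, 0.111, 1.35 and 0.0507 CPM. Lep, Ucp1, Cidea and Elovl3 were not highest in that mouse. The part of cell composition in the differences of the 9 genes was not tested.

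Heart-to-heart variation was shared by some of the 9 genes. After removal of each gene's group mean, Pearson's r of log2(CPM + 1) over the 12 hearts was above 0.8 for 6 of the 36 pairs, all among Ckm, Ckmt2, Gamt and Ak1 and highest for Ckmt2 with Gamt (0.934). Gatm ran against these 4 genes, with r between −0.803 (Ckm) and −0.687 (Gamt). Without ac-WT mice 2 and 3 the median r over the 36 pairs went from 0.363 to 0.128. The pairs with r above 0.8 went from 6 to 3, and those with r below 0 from 12 to 13. The 3 pairs were Ckmt2 with Gamt (0.883), Ckmt2 with Ak1 (0.854) and Ak1 with Ak3 (0.823, from 0.223). Ckm with Ckmt2 went from 0.861 to 0.714, Ckm with Gamt from 0.869 to 0.701 and Gamt with Ak1 from 0.866 to 0.654. Ckm with Ak1 went from 0.857 to 0.487, Ckm with Gatm from −0.803 to −0.466 and Gatm with Ak1 from −0.752 to −0.147. These values share libraries and their scaling and are descriptions only.

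**Figure D4:**
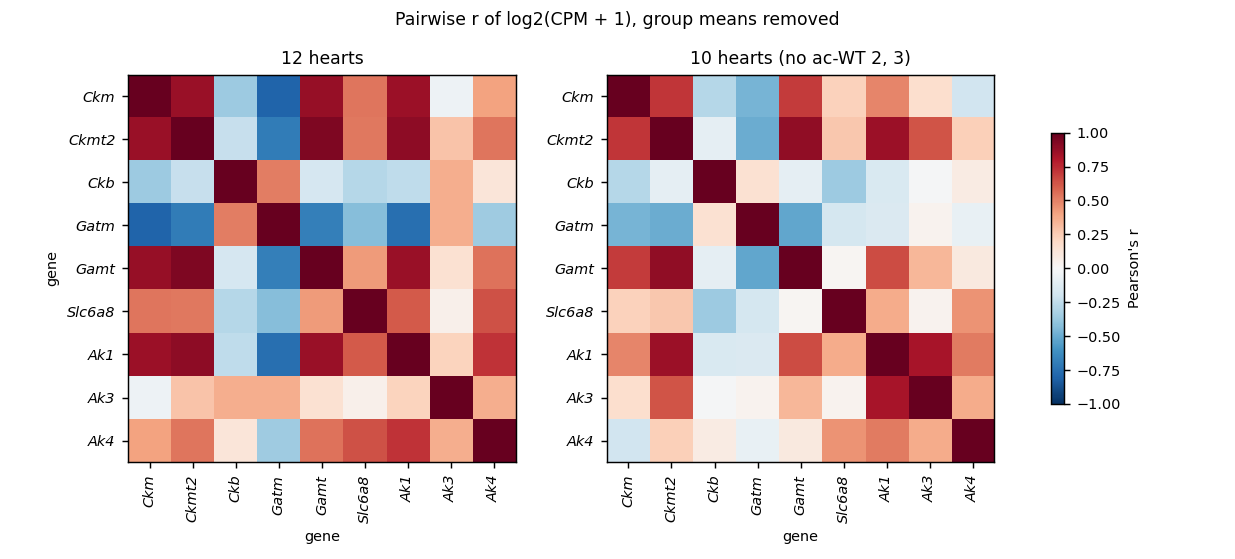
Pearson's r of log2(CPM + 1) between each pair of the 9 genes after removal of group means (colour scale from −1 in blue to 1 in red), over 12 hearts on the left and over 10 hearts without ac-WT mice 2 and 3 on the right. The red block of Ckm, Ckmt2, Gamt and Ak1 on the left is paler on the right for Ckm with Ckmt2 (0.714), Gamt (0.701) and Ak1 (0.487). Gamt with Ak1 is also paler there (0.654).

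By the same measure, the genes whose heart-to-heart pattern was most like that of Ckm, among 13290 candidates, were A530016L24Rik and Coq10a (both r = 0.985) and Myl3 (r = 0.982), the ventricular myosin light chain. Those most like Ckmt2 were Fahd2a (0.984), Adck3 (0.977) and Aldh4a1 (0.968). Gamt was most like Msrb2 and Mgmt (both 0.975) and Vps72 (0.972), Ak1 most like Pigyl (0.985), Uqcc (0.984) and Wdr18 (0.981), and Gatm most like Cdkn2b (0.983), Arl8a (0.982) and Cmtm7 (0.973). The other 4 genes had lower best values. Ckb was most like Armc7 (0.912), Cdk4 (0.885) and Gm13889 (0.866), Slc6a8 most like Chmp4c (0.943), Scap (0.916) and Zfp106 (0.905), Ak3 most like Clybl (0.939), Pex13 and Lap3 (both 0.931), and Ak4 most like Kctd1 (0.941), Nudt2 (0.920) and Pomgnt1 (0.917). Without ac-WT mice 2 and 3 these r values were 0.777 to 0.839 for the genes named for Gatm, 0.779 to 0.850 for Ckb and 0.835 to 0.901 for Ak4, and 0.896 to 0.975 for those named for the other 6 genes.

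Of 60 other genes listed for the same pathway, 52 were tested. At an unadjusted edgeR p under 0.01, 4 of them were lower and 3 higher, against 3.27% and 1.33% of all genes. Of the 52, 0 had an adjusted edgeR p under 0.05, which 0.101% of all genes had. At an unadjusted edgeR p under 0.05 there were 7 lower and 4 higher, against 9.73% and 4.91% of all genes. The median log2 fold change was −0.11 over the 52 genes and −0.01 over all genes. In DESeq2, 6 of the 52 had an adjusted p under 0.05 (Ckmt1, Ak5, Slc25a4, Prkab2, Ppargc1a and Ppargc1b), against the 2.34% of all genes given above. These are the same hearts and counts, so that the second tool is no independent evidence.

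The other creatine and adenylate kinase genes gave 2 of the 3 higher calls, both at low expression. Ckmt1, which encodes the ubiquitous mitochondrial creatine kinase, had 42, 2, 4, 28, 18 and 15 counts in ac-WT mice 1 to 6 and 134, 153, 101, 95, 43 and 115 counts in ac-CYB5R3–KO mice 1 to 6. In CPM the ac-WT range of 0.0698 to 0.791 lay just below the knockout range of 0.808 to 2.67. Ckmt1 was higher by a log2 fold change of 2.38 (SE 0.45, edgeR unadjusted p = 0.00012, adjusted p = 0.0715, exact permutation p = 0.00216), which was 1.99 (adjusted p = 0.109, exact permutation p = 0.00952) without ac-WT mice 2 and 3.

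Ak5, an adenylate kinase best known from brain, had 33, 2, 5, 48, 59 and 57 counts in the ac-WT hearts and 149, 129, 149, 167, 79 and 72 in the ac-CYB5R3–KO hearts. Its groups were also separate, at 0.0698 to 1.21 CPM and 1.46 to 3.27 CPM, with a log2 fold change of 1.71 (SE 0.48, edgeR unadjusted p = 0.00294, adjusted p = 0.184, exact permutation p = 0.00216) that was 1.26 (adjusted p = 0.197, exact permutation p = 0.00952) without ac-WT mice 2 and 3. In DESeq2 the adjusted p was 3.47e-05 for Ckmt1 (range over alternatives 3.47e-05 to 0.299) and 0.0211 for Ak5 (0.0211 to 0.383). Snap25 and Gfap were among the neural markers below the filter, and the sum of all 8, most of it Uchl1, ran from 37.3 to 139 CPM in ac-WT and from 102 to 171 CPM in knockout hearts. The part of neural RNA in Ckmt1 and Ak5 was not tested. Slc16a12, a creatine exporter, had a log2 fold change of 0.00 (edgeR adjusted p = 0.999).

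Across the mitochondrial membranes, 8 of 10 genes of ATP, ADP and phosphate exchange were lower, 3 of them at an edgeR p under 0.05 and 1 under 0.01. Over all genes these shares were 51.2%, 9.73% and 3.27%. The gene under 0.01 was Slc25a4, which encodes the heart isoform of the adenine nucleotide translocator and supplies ATP to mitochondrial creatine kinase. Slc25a4 had lowest, median and highest values of 1899, 2189 and 5814 CPM in ac-WT and 1188, 1524 and 1821 CPM in knockout hearts. The groups did not overlap, and the highest ac-WT value was again that of mouse 2. The log2 fold change was −0.92 (SE 0.27, edgeR unadjusted p = 0.00433, adjusted p = 0.188, exact permutation p = 0.00216), or −0.42 (adjusted p = 0.403, exact permutation p = 0.00952) without ac-WT mice 2 and 3. The edgeR p of Slc25a4 was 0.01 or above in 7 of 23 alternatives, among them the replicate block (0.0118) and the removal of ac-WT mouse 3 or ac-CYB5R3–KO mouse 1, 3 or 4 alone (at most 0.0126). The phosphate carrier Slc25a3 had a log2 fold change of −0.43 (adjusted p = 0.247), and Slc25a5, the other main translocator, of −0.06 (adjusted p = 0.833).

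AMP is read out by the AMP-activated protein kinase, a complex of a catalytic α, a scaffolding β and a nucleotide-binding γ subunit. Of 9 genes for its subunits and upstream kinase, 1 passed an edgeR p of 0.01. Prkab2, the β2 subunit of muscle, had lowest, median and highest values of 29.3, 36.2 and 47.6 CPM in ac-WT and 48.0, 75.2 and 110 CPM in knockout hearts. The highest ac-WT heart was just below the lowest knockout heart, and the log2 fold change was 1.04 (SE 0.20, edgeR unadjusted p = 0.00014, adjusted p = 0.0783, exact permutation p = 0.00216) in all hearts and 0.96 (adjusted p = 0.228, exact permutation p = 0.00952) without ac-WT mice 2 and 3. Prkab2 was higher at an edgeR p under 0.01 in every alternative run. The other β subunit, Prkab1, had a log2 fold change of −0.33 (adjusted p = 0.427). The catalytic subunits Prkaa1 and Prkaa2 were at 0.06 and 0.15 (adjusted p = 0.844 and 0.661).

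**Figure D5:**
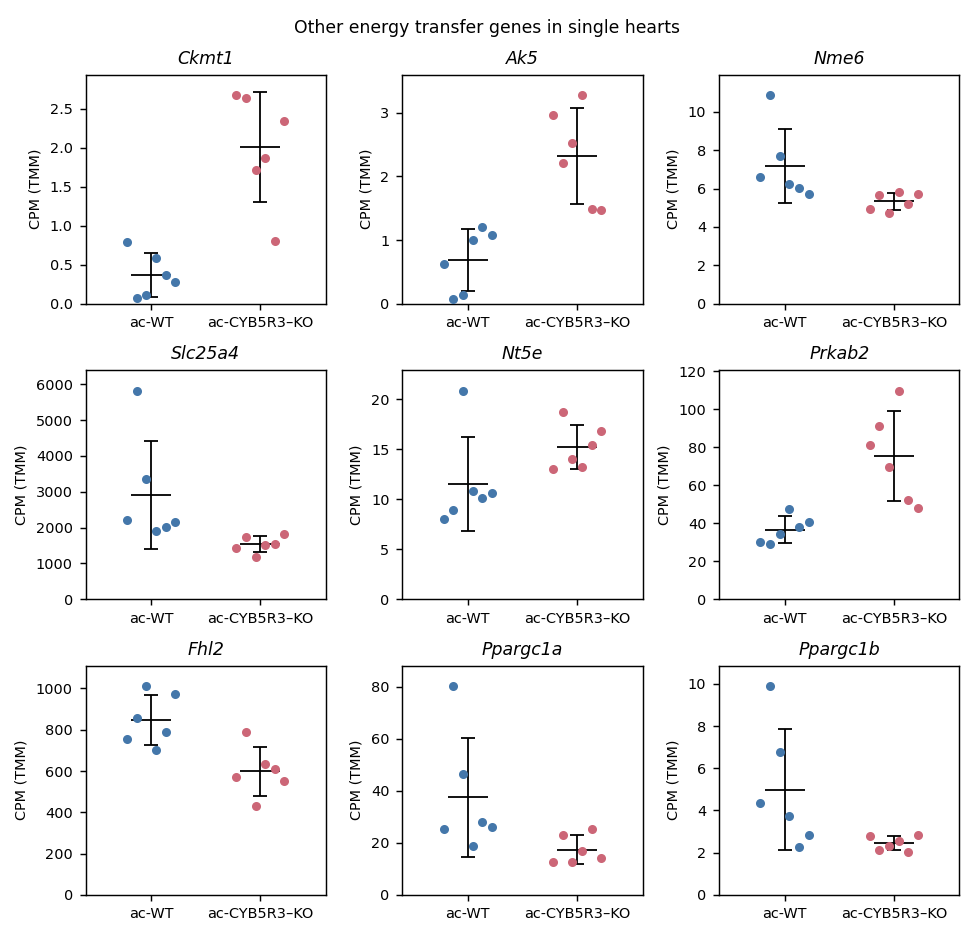
Expression of the 9 named genes outside the member list in each heart, in TMM-normalized CPM on a linear axis from 0. Points are single mice (6 per group, left to right mouse 1 to 6), the long bar is the group mean and the whiskers are the SD. The groups are separate for Ckmt1, Ak5, Prkab2 (higher in ac-CYB5R3–KO) and Slc25a4 (lower), and ac-WT mouse 2 is the highest heart for Slc25a4 at 5814 CPM. Over all genes, 1.04% are separate with knockout lower, and the share with knockout higher is not given here.

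Of 5 genes that hold creatine kinase at the sarcomere, Fhl2, whose LIM protein places metabolic enzymes on titin, was lower at an edgeR p under 0.01. It ran from 700 to 1010 CPM in ac-WT and from 428 to 791 CPM in knockout hearts, with a log2 fold change of −0.50 (SE 0.15, edgeR unadjusted p = 0.00593, adjusted p = 0.196, exact permutation p = 0.00866) that was −0.41 (adjusted p = 0.539, exact permutation p = 0.0333) without ac-WT mice 2 and 3. The edgeR p of Fhl2 was 0.01 or above in 13 of 23 alternatives, with a highest value of 0.526 when scaled to cardiomyocyte genes (log2 fold change −0.11). Relative to the median gene Fhl2 was at −0.512 under that scaling and at −0.495 with TMM. With 1 mouse left out (ac-WT mouse 3 or 6, or any ac-CYB5R3–KO mouse but 2) the highest p was 0.0179. The log2 fold changes were then between −0.42 and −0.51. The M-band proteins Myom1 and Myom2, to which muscle creatine kinase binds, had log2 fold changes of −0.11 and −0.17 (adjusted p = 0.798 and 0.744), and their relative Myom3, named after its value was seen, of 0.51 (adjusted p = 0.265), the only higher gene of the list at an unadjusted edgeR p under 0.05.

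Among 8 transcription factors and coactivators known to act on these genes, the coactivators Ppargc1a and Ppargc1b, which drive mitochondrial gene expression, were the 2 lower calls. Ppargc1a had lowest, median and highest values of 18.7, 27.1 and 80.2 CPM in ac-WT and 12.4, 15.5 and 25.3 CPM in knockout hearts, and its groups overlapped. The log2 fold changes were −1.10 (edgeR unadjusted p = 0.00475, adjusted p = 0.191, exact permutation p = 0.013) for Ppargc1a and −1.02 (edgeR unadjusted p = 0.00502, adjusted p = 0.192, exact permutation p = 0.0195) for Ppargc1b. Both depended on the ac-WT mice 2 and 3, without which they were −0.48 (adjusted p = 0.609, exact permutation p = 0.0667) and −0.42 (adjusted p = 0.598, exact permutation p = 0.0619). With 1 mouse left out, the edgeR p was 0.01 or above for 6 of 12 mice in Ppargc1a and 5 of 12 in Ppargc1b (at most 0.0127 and 0.0141). Their partner receptors Esrra and Esrrg were at −0.35 and 0.26 (adjusted p = 0.344 and 0.567).

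Among other nucleotide kinases and genes of AMP metabolism, none of 8 tested genes in either list passed an edgeR p of 0.01. The smallest p values were those of Nme6, a nucleoside diphosphate kinase (log2 fold change −0.42, adjusted p = 0.240, exact permutation p = 0.00433), and of Nt5e, the ectonucleotidase that makes adenosine from AMP (log2 fold change 0.40, adjusted p = 0.383, exact permutation p = 0.0649). Nme6 was −0.19 (adjusted p = 0.686, exact permutation p = 0.0286) without ac-WT mice 2 and 3, and 0.04 when scaled to cardiomyocyte genes, or −0.36 relative to the median gene. Nt5e was 0.64 (adjusted p = 0.127, exact permutation p = 0.00476) without ac-WT mice 2 and 3, and mouse 3 alone was at 20.9 CPM where the other 5 ac-WT hearts were between 8.01 and 10.8 CPM. Ampd1, the AMP deaminase of skeletal muscle, had at most 0.0832 CPM in any heart and was below the filter.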

How the data were processed

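RNA from the whole hearts of 12 separate mice was sequenced, 6 per group. The authors deposited raw read counts, a whole number per Ensembl gene and library, without normalization. The submitters' processing notes name STAR, featureCounts and GRCm39, whereas the paper's methods describe mapping to mm9 and values from Cufflinks, and the strand setting of the counts is not given in the sources used here, so reads of overlapping genes could be divided between them. Symbols were found for 31027 of 53700 identifiers (57.8%) and for 145 of 148 listed genes. Counts were filtered by filterByExpr (minimum 10), scaled by TMM and compared by edgeR's quasi-likelihood test (edgeR 4.0.16, R 4.3.3), two-sided, without covariates, with Benjamini-Hochberg adjustment over 17847 genes. The alternatives used DESeq2 (1.42.0), limma-voom (limma 3.58.1), sva (3.50.0), other scalings and filters, a replicate block, and left out hearts. The biological coefficient of variation was 26.5%, so spread between mice, rather than counting error, limited all but the lowest genes, and reads lacking molecular identifiers need not be separate molecules. Exon lengths and RefSeq promoters were matched by identifier or symbol. For members and named genes, the group means of log2(CPM + 1) were further tested by exact permutation (two-sided), a test added after the data were seen. The tests were checked on simulated counts.

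The members and lists were chosen with earlier results of these data known. Named genes were the 9 members, Cyb5r3, in each other list of the pathway every gene at an unadjusted p under 0.01 or else the one with the smallest p, and for each member the 3 genes of at least 1 CPM most like it by Pearson's r of log2(CPM + 1) with group means removed. Further genes, chosen with their values in view as examples of their list, were Slc16a12, Slc25a3, Slc25a5, Prkab1, Prkaa1, Prkaa2, Myom1, Myom2, Myom3, Esrra, Esrrg and Ampd1. Some listed genes are not reported here.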

Additional observations from a re-analysis of the deposited data

Results flagged for a closer look

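In 5 of 38 groups of 6 hearts, 1 heart stood apart from the rest by Dixon's test, which chance alone flags in about 1 of 20 groups. For Slc6a8, ac-CYB5R3–KO mouse 2 was highest at 120.8 CPM, with the next heart at 97.1 CPM. For Ak1, ac-WT mouse 2 was highest at 492.5 CPM, with the next at 297.6 CPM. For Ak4, the same ac-WT mouse 2 was at 19.94 CPM and the next heart at 12.8 CPM. For Slc25a4, ac-WT mouse 2 was at 5814 CPM and the next at 3353 CPM. For Nt5e, ac-WT mouse 3 was at 20.86 CPM and the next at 10.8 CPM. Of these 5 hearts, 3 were ac-WT mouse 2, the library with the lowest TMM factor (0.570).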

How the results depend on the processing

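The number of members at an unadjusted p under 0.01 was 1 with edgeR, DESeq2 and limma-voom, 2 (Slc6a8 and Ak4, both higher) when scaled to cardiomyocyte genes, 0 with the replicate block, 0 without ac-WT mice 2 and 3 together and 0 after 1 surrogate variable. The share of all genes called at this threshold was 4.59% with edgeR and TMM, 3.87% with DESeq2, 3.82% with limma-voom, 3.87% when scaled to cardiomyocyte genes (3.55% higher), 3.77% with the block, 2.33% without the 2 mice and 2.11% with the surrogate variable. Leaving out each mouse in turn gave 0 to 2, with 0 without ac-WT mouse 2, ac-WT mouse 3, ac-CYB5R3–KO mouse 1 or ac-CYB5R3–KO mouse 3, and 2 (Ckm and Gamt) without ac-WT mouse 6. Members at an adjusted p under 0.05 numbered 0 in every alternative except DESeq2, with 1. Cyb5r3 had a log2 fold change of −0.87 (adjusted p = 0.210) when scaled to cardiomyocyte genes, and its adjusted p was also above 0.05 with limma-voom (0.0561), total counts (0.315), the replicate block (0.100) and the removal of any of 7 single mice (at most 0.136). Signs turned for Ak1 (0.040) and Nme6 (0.042) when scaled to cardiomyocyte genes, which moved the median of all genes to 0.40 (relative to it both were at −0.36), for Gatm (−0.29) and Ak3 (−0.025) with 1 surrogate variable, and for Gatm without ac-WT mice 2 and 3 (−0.18). With single mice left out, Gatm ran from −0.011 to 0.22. The cause was not tested. Mice that share a number are not the same animal across groups, and their residuals correlated at −0.174 to 0.356 over 6 pairs (mean 0.129, against −0.0245 for other pairs), and 3 of 6 ac-WT mice correlated best with their own number, a hint from the data and not from the design, so the hearts were not treated as paired. With the replicate block Ckm was at −0.96 (adjusted p = 0.275), and genes called at an unadjusted p under 0.01 went from 820 to 672 of all tested. Ckmt1 and Ak5 gave no value where 10 counts were required in every library.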
